A study of Mus musculus with 12 samples.

Results

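Ptn and Cadps are 2 of the 8106 mouse genes that could be named on this array. They were chosen because both were bright in wild type and Notch-inactivated intestinal adenomas and dim in Notch-activated adenomas and in normal tissue, so their own levels and differences are given here as a description, with no test. Each has 1 probe, and both probes passed the filter on dim signal that left 5091 named genes and 16824 unnamed probes, together the 21915 features tested.

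Ptn encodes pleiotrophin, a secreted heparin-binding growth factor that is best known from the developing nervous system, where it binds the receptor phosphatase Ptprz1, syndecans and other heparan sulphate carriers. Cadps encodes CAPS1, the calcium-dependent activator protein for secretion, which primes dense-core vesicles for fusion in neurons and hormone-secreting cells. In the gut, Notch receptors on epithelial cells are activated by ligands on neighbouring cells and keep progenitors from becoming secretory cells. Loss of Apc switches on Wnt signalling there and starts adenomas.

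Total RNA of normal and tumour tissue was measured on 12 Illumina bead arrays, 2 for each of 6 groups, in a study of how Notch signalling bears on colorectal tumours. All mice carried the Apcmin mutation, which makes adenomas form. Wild type mice are labelled wt, Notch-inactivated mice were Vil-Cre;Mib1f/f, and Notch-activated mice were Vil-Cre;RosaN1+/RN1; normal and tumour tissue were taken for each. Villin promoter-driven Cre acts in the gut epithelium and leaves the stroma unaltered, the ubiquitin ligase Mib1 makes Notch ligands able to signal, and the Rosa allele expresses active Notch1 after Cre has cut. The labels give no gut segment, no age, and no statement that the 2 arrays of a group are separate animals, so p-values below reflect array-to-array spread that could be technical, and 2 arrays a group limit the precision.

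Values are log2 signals as deposited, and an array's background limit is the 95th percentile of its 59 probes for foreign sequences, between 5.63 and 5.87. The probe for eGFP read 9.50 to 10.2 on the 4 Notch-activated arrays and 5.12 to 5.48 on the 8 others, and the IRES probe 7.39 to 8.54 against 5.36 to 5.57. Mib1 averaged 6.12 and 6.23 in normal tissue and tumours of Notch-inactivated mice, against 6.40 and 6.75 in wild type and 6.51 and 6.82 in Notch-activated mice. Since the Mib1 probe's position relative to the floxed exons is unknown here, Mib1 is no check of the deletion. The epithelial keratin Krt8 lay between 13.3 and 13.8 on all 12 arrays, near the arrays' maximum of 14.2. Other epithelial markers varied more: group means ran from 11.05 to 12.48 for Krt19 and from 10.08 to 12.55 for Cldn4. Krt8 alone thus does not show a constant epithelial content. In such bulk samples, fewer cells of a type and less RNA per cell cannot be told apart.

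Ptn lies on chromosome 6 (36714924 to 36810179, RefSeq assembly GRCm38.p6), spanning 95256 bases, and Cadps on chromosome 14 (12372560 to 12823339), spanning 450780 bases. Both are long genes: the median span of the named genes tested was 23577 bases, with Ptn at the 84.7th percentile and Cadps at the 98.6th. Their names were read from gene numbers in the probe identifiers. Of the numbers written after 1 leading zero, as for Cadps, 81.1% matched a gene, against 25.0% after a shift by 1000. For those after 2 zeros, as for Ptn, the shares were 84.8% and 26.1%. Among probes so named as ribosomal protein genes, 98.3% of the first kind and 42.1% of the second lay above a log2 signal of 8, so the name Ptn is the less firm of the 2. Another probe carries the number of Cadps with no leading zero, a class whose numbers matched genes no more often (10.6%) than shifted numbers did (10.4%). It read 5.71 to 6.46 on all arrays, did not follow the Cadps pattern and was not taken as Cadps.

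Because the 2 genes varied together, their promoters are shown, beside that of Nkd1, the named gene most like Ptn. Each window runs from 250 bases before the annotated start to 50 after it, 5' to 3' on the gene's strand, in RefSeq sequence of GRCm38.p6. The Ptn window is chr6:36810130-36810429 on the minus strand, the Cadps window chr14:12823030-12823329 on the minus strand and the Nkd1 window chr8:88527383-88527682 on the plus strand; the Cadps start in the table lies inside the outer boundary of the gene. Capitals mark the 1 match to any motif searched.
Ptn: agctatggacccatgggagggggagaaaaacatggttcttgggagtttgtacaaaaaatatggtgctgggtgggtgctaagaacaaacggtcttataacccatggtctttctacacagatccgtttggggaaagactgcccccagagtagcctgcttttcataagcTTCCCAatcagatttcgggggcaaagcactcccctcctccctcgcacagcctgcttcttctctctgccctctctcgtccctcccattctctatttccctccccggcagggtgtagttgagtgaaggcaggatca
Cadps: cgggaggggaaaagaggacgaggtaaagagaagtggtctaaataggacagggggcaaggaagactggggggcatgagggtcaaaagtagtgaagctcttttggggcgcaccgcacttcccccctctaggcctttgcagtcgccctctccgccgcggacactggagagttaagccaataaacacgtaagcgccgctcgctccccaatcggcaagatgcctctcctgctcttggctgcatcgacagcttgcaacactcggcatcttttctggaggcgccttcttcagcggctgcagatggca
Nkd1: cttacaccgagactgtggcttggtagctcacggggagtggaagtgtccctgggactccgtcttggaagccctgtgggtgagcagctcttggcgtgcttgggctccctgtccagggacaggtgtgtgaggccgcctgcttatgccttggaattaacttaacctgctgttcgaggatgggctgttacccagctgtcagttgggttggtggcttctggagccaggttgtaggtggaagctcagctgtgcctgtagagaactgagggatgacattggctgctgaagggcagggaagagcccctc
The motifs were searched on both strands: TGGGAA, the core bound by the Notch effector Rbpj; CTTTGA, a core of Wnt-responsive TCF/LEF factors; and CACNAG, the N-box of Hes repressors. Of 32851 mouse promoter windows of 300 bases, 25.6% hold the first, 16.0% the second and 42.5% the third. The Ptn window holds TTCCCA, the first motif read on the opposite strand, with its first base at -84 from the start. The Cadps and Nkd1 windows hold none of the 3, and the Ptn window neither of the others. A match describes letters in a window and is no measured binding site.

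Ptn read 5.31 and 5.29 in wild type normal tissue, 5.39 and 5.52 in Notch-inactivated normal tissue, and 5.29 and 5.36 in Notch-activated normal tissue. All 6 normal arrays lay below their background limits, so they have no order among themselves. In tumours it read 11.42 and 11.18 in wild type, 10.83 and 12.02 in Notch-inactivated, and 6.05 and 6.33 in Notch-activated mice. The growth factor's transcript was thus high on 4 tumour arrays, and on the 2 Notch-activated tumour arrays it lay just above the limit of 5.73. Wild type (11.30 ± 0.17, SD, n = 2) and Notch-inactivated tumours (11.43 ± 0.84, n = 2) overlapped, and Notch-activated tumours (6.19 ± 0.20, n = 2) overlapped with no other group.

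Cadps read 5.34 and 5.76 in wild type normal tissue, 5.76 and 5.95 in Notch-inactivated normal tissue, and 4.94 and 5.31 in Notch-activated normal tissue. Of these, 1 array exceeded its limit, the second Notch-inactivated one. In tumours it read 11.09 and 9.91 in wild type, 10.13 and 11.27 in Notch-inactivated, and 5.67 and 5.26 in Notch-activated mice. The vesicle priming factor was high on the same 4 tumour arrays as Ptn, but unlike Ptn it lay at background on both Notch-activated tumour arrays. Wild type (10.50 ± 0.84, n = 2) and Notch-inactivated tumours (10.70 ± 0.80, n = 2) overlapped. Notch-activated tumours (5.46 ± 0.29, n = 2) overlapped with wild type (5.55 ± 0.30, n = 2) and Notch-activated normal tissue (5.13 ± 0.26, n = 2). Notch-inactivated normal tissue averaged 5.85 ± 0.13.

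**Figure D1:**
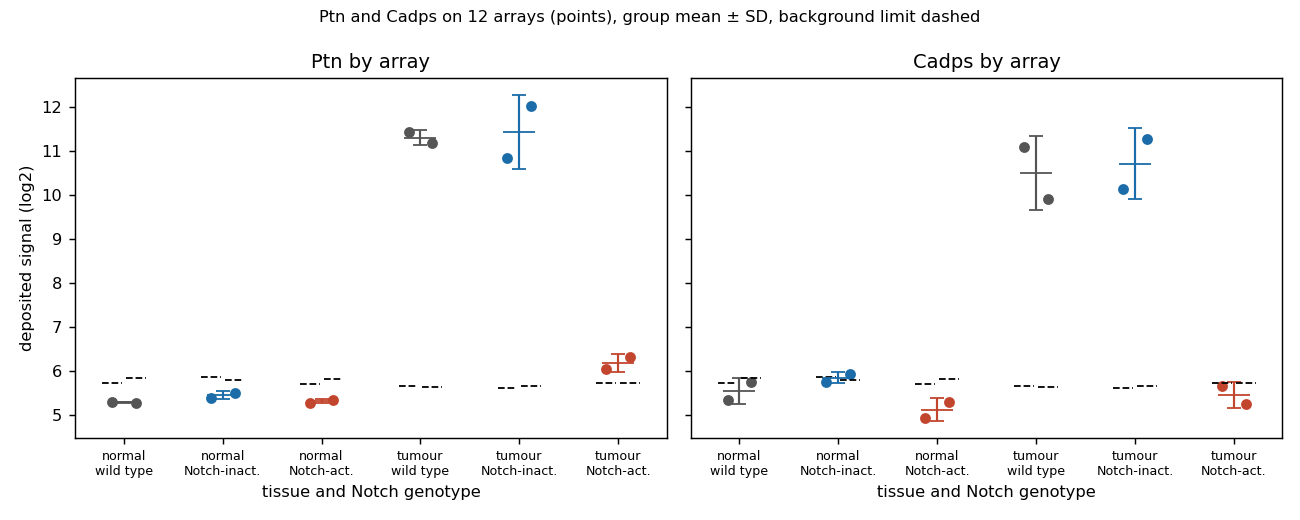
Deposited log2 signal (vertical axis) of Ptn (left) and Cadps (right) on each of 12 arrays by group; points are arrays, bars the mean ± SD of 2 arrays and dashed lines the background limit of each array. Both genes lie between 9.91 and 12.02 on the 4 wild type and Notch-inactivated tumour arrays, while the other 8 arrays reach at most 6.33 for Ptn and 5.95 for Cadps.

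From normal tissue to tumour, the Ptn signal in wild type mice differed by 6.0 on the log2 scale (SE 0.29). Since normal tissue was at background, this is a bound of at least 45.6-fold higher, computed against the limits in place of the unmeasured level. In Notch-inactivated mice the difference was 5.97 (SE 0.29), at least 48.1-fold higher. In Notch-activated mice it was 0.86 (SE 0.29), at least 1.35-fold higher. The 3 differences rest on separate arrays, and the first 2 exceed the spread between arrays of any group.

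Cadps differed between tumour and normal tissue by 4.95 (SE 0.41) in wild type mice, at least 26.3-fold higher in the tumour. In Notch-inactivated mice the difference was 4.85 (SE 0.41), with 1 of the 2 normal arrays above background. In Notch-activated mice both tissues were at background and no fold can be given.

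Among tumours, Ptn was lower in Notch-activated than in wild type mice by 34.6-fold, a log2 difference of -5.11 (SE 0.29). Against Notch-inactivated tumours it was -5.24 (SE 0.29). Cadps differed by -5.04 (SE 0.41) from wild type tumours, at least 27.3-fold lower, and by -5.24 (SE 0.41) from Notch-inactivated tumours, at least 31.4-fold lower. The 2 comparisons share the Notch-activated arrays. For scale, limma called 22.2% of all features between these groups at a Benjamini-Hochberg adjusted p under 0.05, 10.9% as lower.

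Between Notch-inactivated and wild type tumours, Ptn differed by 0.13 (SE 0.29) and Cadps by 0.20 (SE 0.41), each less than the gap between the 2 arrays of the Notch-inactivated group. Without the first Notch-inactivated tumour array the Ptn value was 0.72, and without the second it was -0.47. For Cadps the values over all arrays left out ran from -0.39 to 0.79. So neither direction nor size of this difference was settled by these arrays. In this comparison limma called 0.219% of features.

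In wild type and Notch-inactivated tumours the gap between the 2 arrays was larger for both genes than for the median feature. Between the 2 Notch-inactivated tumours, Ptn was 1.19 higher on the second array and Cadps 1.14, where the median feature differed by 0.10 and the 95th percentile of features was 0.46. The matrix gene Mgp was 1.11 higher on the second array as well, the Wnt targets Wnt6 0.42 and Nkd1 0.27, and the fibroblast marker Dcn 0.19. The Wnt target Prox1 was lower by 0.03 and Krt8 by 0.20, and the fibroblast marker Fbln1 read 8.09 on the first array and 7.74 on the second. Between the wild type tumours, Cadps was 1.18 higher on the first array, Mgp 0.53, Nkd1 0.39, Ptn 0.24, Dcn 0.10 and Wnt6 0.02. Prox1 was lower there by 0.43 and Krt8 by 0.17, and Fbln1 read 8.11 on the first array and 8.23 on the second. The median feature differed by 0.11 and the 95th percentile was 0.50.

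A search over all features placed this pattern among others. On the 4 wild type and Notch-inactivated tumour arrays, 3062 features, 1155 of them named, read 9 or more, a level set after the members' values were seen. Of these, 24 features exceeded background on at most 2 of the other 8 arrays, and 6 of the 24 were named: Ptn, Cadps, Nkd1, Mgp, Defa5 and Defa21. With at most 1 other array above background, 2 remained, Cadps and an unnamed probe. The 2 other arrays above background differed in kind: for Ptn, Nkd1 and Mgp they were the Notch-activated tumours, and for the Paneth cell defensins Defa5 and Defa21 they were the Notch-inactivated normal samples. In the Notch-activated tumours Mgp read 9.25 and 9.46, Nkd1 6.03 and 6.10, and Ptn 6.05 and 6.33.

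Genes with the most similar profile were ranked by Pearson's r over the 12 arrays, among 1226 named genes whose group means spanned at least 1 on the log2 scale. Such an r mostly reflects 4 high arrays against 8 low ones, is chosen from the data and carries no p. The 8 genes most like Ptn were Nkd1 (r = 0.997), a feedback inhibitor of Wnt signalling, the metallothioneins Mt3 (0.997) and Mt4 (0.996), the actin regulator Wasf1 (0.996), the Slit receptor Robo1 (0.992), Aspscr1 (0.991), the proteoglycan Spock2 (0.991) and the adhesion protein Nlgn2 (0.991). The 8 most like Cadps were Aspscr1 (0.991), Mt3 (0.989), Mt4 (0.989), the transcription factors Sox11 (0.987) and Tbx1 (0.986), Gsdma (0.987), Ptn (0.985) and Pdgfrl (0.984). The lists share 3 genes. Ptn stood 7th for Cadps, and Cadps 20th for Ptn. An r of at least 0.95 was reached by 401 features for Ptn and by 253 for Cadps.

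**Figure D2:**
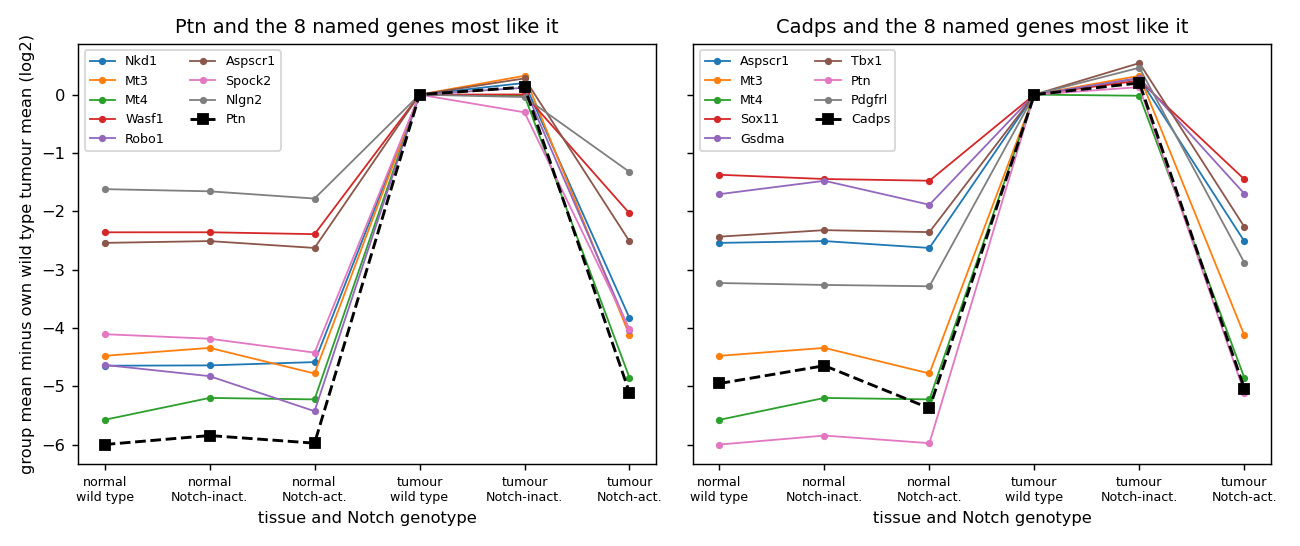
Group means of Ptn (left) and Cadps (right) and of the 8 named genes most like each, each as the log2 difference from its own wild type tumour mean (vertical axis) over the 6 groups. All lines peak in wild type and Notch-inactivated tumours, and the depth differs: in Notch-activated tumours Ptn lies at -5.11 and Nkd1 at -3.83.

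Nkd1 belongs to a list of Wnt targets, of which 9 were measured. From normal tissue to wild type tumour 8 rose and 0 fell, with a median log2 difference of 1.17 against -0.03 over all features, where limma called 51.1% of features. Between Notch-activated and wild type tumours 0 rose and 6 fell, with a median of -0.72 against 0.01. In that comparison 22.2% of all features were called, 10.9% as lower. Nkd1 fell by 3.83 (SE 0.14, adjusted p = 5.88e-07), Prox1, a transcription factor, fell by 3.62 (SE 0.14, adjusted p = 9.40e-07) and Sox4 fell by 1.68 (SE 0.21, adjusted p = 3.98e-04), while the ligand gene Wnt6 was at least 3.02-fold lower (adjusted p = 1.82e-05). The other 2 that fell, Ascl2 and Cldn2, were lost without the first wild type tumour array (-0.57, adjusted p = 0.121, and -0.53, adjusted p = 0.0645), and each also without 1 or more of the other arrays compared. The cell cycle gene Ccnd1 (0.36, adjusted p = 0.199) and the surface receptor Ephb2 (0.16, adjusted p = 0.576) did not pass the test.

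Receptors and binding partners of pleiotrophin came next. Of 22 listed genes, 11 had a named probe and 9 were measured, and the receptor kinase Alk and the proteoglycan Ncan stayed at background. No probe was named here for Ptprz1 or for Mdk, the sister growth factor midkine. From normal tissue to wild type tumour 5 rose and 3 fell (51.1% of all features called), with a median log2 difference of 0.32 against -0.03 over all features. The neuropilin gene Nrp1 had signals of 8.54 and 8.66 in tumours against 6.41 and 6.86 in normal tissue, and rose by 1.96 (SE 0.17, adjusted p = 1.73e-05). The integrin subunit Itgav rose by 0.78 (SE 0.12), from normal tissue at 5.72 and 5.85, where the background limits were 5.73 and 5.85. The size of its rise is thus uncertain. The coreceptors Lrp1 and Lrp6 fell by 0.72 (SE 0.12) and 0.79 (SE 0.10), and Nrp1, Itgav, Lrp1 and Lrp6 were called with every array left out in turn. Of the 9, 4 rose and 2 fell in Notch-inactivated tumours (52.0% of all features called) and 3 rose and 1 fell in Notch-activated tumours (25.8% called), each against its own normal tissue.

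The 2 measured syndecans, carriers of heparan sulphate on the cell surface, differed in direction. Sdc1 was 0.52 (SE 0.13) higher and Sdc2 0.63 (SE 0.16) lower in wild type tumours than in normal tissue. These calls were not stable: Sdc1 was lost without the first wild type normal array (0.37, adjusted p = 0.0631) and with the mean over its probes (0.37, adjusted p = 0.0828), and Sdc2 without the first wild type normal array (-0.57, adjusted p = 0.0528) or the first wild type tumour array (-0.37, adjusted p = 0.0729). The matrix proteoglycans Agrn and Vcan made up the rest of those that rose, with Vcan at background on both wild type normal arrays (5.41 and 5.57). Agrn was lost without either normal array or the second tumour array (0.22, adjusted p = 0.276), and Vcan without the first array of either tissue (0.24, adjusted p = 0.115, and 0.27, adjusted p = 0.111).

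Between Notch-activated and wild type tumours, 2 of the 9 partners rose and 1 fell (22.2% of all features called), with a median of 0.11 against 0.01. Sdc1 read 9.71 and 9.99 in Notch-activated tumours against 9.0 and 9.07 in wild type tumours, a rise of 0.82 (SE 0.13, adjusted p = 0.00153). Sdc2 read 7.93 and 7.76 against 6.68 and 7.20, a rise of 0.91 (SE 0.16, adjusted p = 0.00318). In this comparison both syndecans were higher where Ptn was low. In wild type and Notch-inactivated normal tissue, where Ptn was at background, Sdc1 averaged 8.52 and 8.55, below its 9.04 in wild type tumours. Sdc2 averaged 7.57 and 7.20 there, above its 6.94 in wild type tumours. Nrp1 fell by 0.61 (SE 0.17, adjusted p = 0.0311), a call lost without any 1 of the 4 arrays compared (-0.50 to -0.72, adjusted p from 0.0562 to 0.181). In Notch-activated normal tissue, where Ptn was at background, Sdc1 read 9.95 and 10.001 against 8.37 and 8.67 in wild type normal tissue, a rise of 1.46 (SE 0.13, adjusted p = 1.40e-04). Limma called 8.44% of features in that comparison.

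Of the substrates and effectors below pleiotrophin's receptors, 20 were listed and 7 measured. From normal tissue to wild type tumour 0 rose and 4 fell, near the 51.1% called over all features, with a median of -0.63 against -0.03. The scaffold Magi1, a Ptprz1 substrate, fell by 0.96 (SE 0.15), the kinase Mapk3 by 0.73 (SE 0.10), the regulatory PI3 kinase subunit Pik3r1 by 0.68 (SE 0.18) and cortactin, Cttn, by 0.63 (SE 0.13). Pik3r1 was lost without the first normal array (-0.62, adjusted p = 0.0593) or the second tumour array (-0.56, adjusted p = 0.0731). Between Notch-activated and wild type tumours 3 rose and 0 fell (22.2% of all features called), with a median of 0.41 against 0.01. Magi1 read 7.0 and 7.24 against 6.15 and 6.27, a rise of 0.91 (SE 0.15, adjusted p = 0.00197). Cttn rose by 0.64 (SE 0.13, adjusted p = 0.00522), though the mean over its probes gave 0.26 (adjusted p = 0.124). Mapk3 rose by 0.41 (SE 0.10, adjusted p = 0.0150), and its call was lost with the mean over its probes (0.36, adjusted p = 0.0524), without the second wild type tumour array (0.37, adjusted p = 0.0880) and without the first Notch-activated tumour array (0.36, adjusted p = 0.105).

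The machinery in which CAPS1 works was listed with 43 genes, of which 13 had a named probe and 9 were measured. No probe was named here for Cadps2, the close relative of Cadps. From normal tissue to wild type tumour 5 rose and 2 fell (51.1% of all features called), with a median of 0.41 against -0.03. Unc13b, a Munc13 priming factor, rose by 0.59 (SE 0.11, adjusted p = 0.00148). Against their own normal tissue 4 rose and 2 fell in Notch-inactivated (52.0% called) and 1 rose and 1 fell in Notch-activated tumours (25.8% called). The active zone protein Rims2 rose at least 1.49-fold and complexin 2, Cplx2, at least 1.31-fold. Rab27b, a GTPase of secretory granules, fell by 1.09 (SE 0.14), and the SNARE protein Snap25 by 0.33 (SE 0.09). Without the first tumour array the Rims2 value was 0.56 (adjusted p = 0.0509), and Snap25 (-0.32, adjusted p = 0.0597) and the calcium sensor Syt1 (0.35, adjusted p = 0.0817) were lost too. Without the first normal array Snap25 (-0.31, adjusted p = 0.0578) and Syt1 (0.39, adjusted p = 0.0565) were also lost, as was Snap25 after cyclic loess (-0.24, adjusted p = 0.0578).

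Between Notch-activated and wild type tumours, 1 of the 9 rose and 2 fell (22.2% of all features called), with a median of -0.07 against 0.01. Cplx2 was at least 1.36-fold lower (adjusted p = 0.00137), with both Notch-activated tumour arrays at background. Rab27b rose by 0.59 (SE 0.14, adjusted p = 0.0122), a call lost without the first wild type tumour array (0.49, adjusted p = 0.0951) or the second Notch-activated tumour array (0.46, adjusted p = 0.0964).

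Between Notch-inactivated and wild type tumours, limma called 0 of the 29 measured genes of the pleiotrophin and vesicle lists, and 1 had an unadjusted p under 0.05. As it called only 0.219% of all features there, the count of 0 does not set these genes apart. The tumour minus normal difference itself differed from that in wild type mice for 12.7% of all features in Notch-activated mice, with Sdc1, Itgav, Rab27b and Cplx2 among them. In Notch-inactivated mice this held for 0.739%, with Itgav the one gene of these lists.

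**Figure D3:**
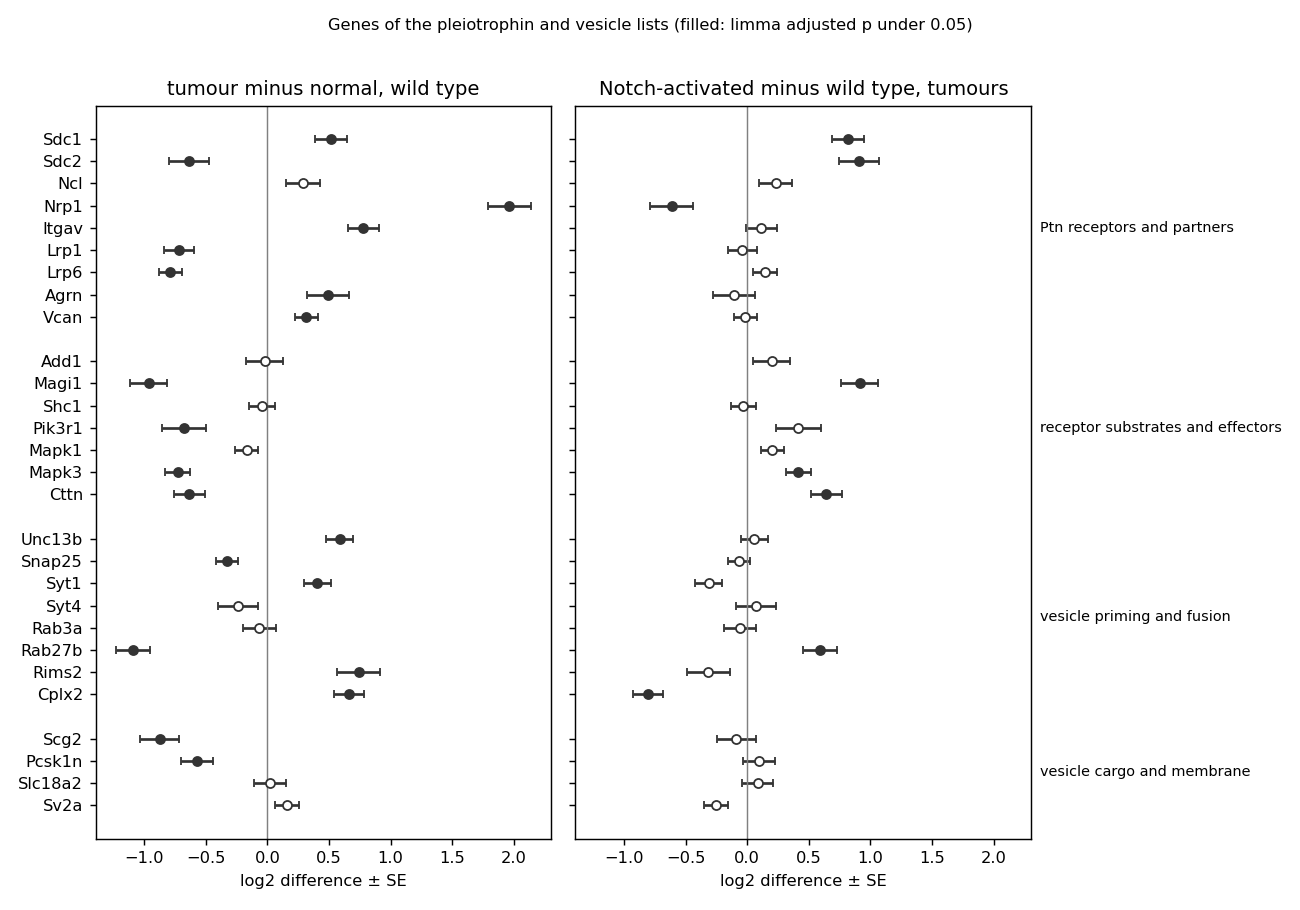
Log2 difference with its SE (horizontal axis) for measured genes of the pleiotrophin and vesicle lists, tumour minus normal in wild type mice (left) and Notch-activated minus wild type in tumours (right); filled points passed limma's test at an adjusted p under 0.05. Among the genes drawn, Nrp1 (1.96) lies farthest to the right in the left panel, and Cplx2 (-0.81) farthest to the left in the right panel.

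Cargo and membrane proteins of dense-core vesicles are what CAPS1 helps to release. Of 21 listed genes, 4 were measured, and in wild type tumours 0 rose and 2 fell (51.1% of all features called), with a median of -0.28 against -0.03. The granin Scg2 was at least 1.54-fold lower and the prohormone convertase inhibitor Pcsk1n fell by 0.57 (SE 0.13). Between Notch-activated and wild type tumours limma called 0 of the 4 (22.2% of all features called), and 1 had an unadjusted p under 0.05. Scg2 and the vesicle protein Sv2a were at background in both groups, so these arrays could not show a difference for them. Of the enteroendocrine markers 2 were measured, and both fell in wild type tumours: Ddc, an enzyme of amine synthesis, by 1.42 (SE 0.19, adjusted p = 1.78e-04), and the transcription factor Nkx2-2 at least 1.34-fold. Ddc was 1.14 (SE 0.19, adjusted p = 0.00179) higher in Notch-activated than wild type tumours, opposite to Cadps, and Nkx2-2 was at background in both. The 2 markers did not move together in normal tissue. In Notch-activated against wild type mice, Ddc averaged 10.35 against 10.15 there and Nkx2-2 averaged 4.99 against 6.06. Ddc alone is thus no measure of enteroendocrine cells here. Of 12 markers of enteric neurons and glia with a probe, 9 stayed at background. Among the 3 measured, Gap43 was at least 1.07-fold higher in wild type tumours and at least 1.11-fold lower in Notch-activated than wild type tumours, and both calls were lost without the second wild type tumour array (0.30, adjusted p = 0.0867, and -0.27, adjusted p = 0.201). The first was also lost without the first wild type normal array (0.53, adjusted p = 0.0521), and the second without either Notch-activated tumour array (-0.59, adjusted p = 0.0773, and -0.45, adjusted p = 0.163). Elavl4, at background in both tissues, was called by -0.27 (adjusted p = 0.0492), and Tubb3 differed by -0.06 (adjusted p = 0.704). The Elavl4 call was lost without either wild type tumour array (-0.34, adjusted p = 0.0649, and -0.20, adjusted p = 0.234), without the second wild type normal array (-0.16, adjusted p = 0.285), and with most other arrays left out.

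Marker lists of several cell types were lower in Notch-activated tumours as well. The summed linear signal of the 8 measured fibroblast markers was, as a share of its wild type tumour mean, 5.37% in wild type normal tissue and 51.3% in Notch-activated tumours. Ptn stood at 1.56% and 2.90% and Cadps at 3.01% and 2.83% on the same scale, both with a background signal in them. Limma called 5 of the 8 fibroblast markers lower in Notch-activated than wild type tumours and 0 higher, where 10.9% of all features were lower and 22.2% called, with a median of -0.76 against 0.01. Mgp fell by 1.76 (SE 0.30) and Fbln1, a matrix glycoprotein, fell by 1.34 (SE 0.21). The sum of 4 endothelial markers was 89.1% in Notch-activated tumours (0 called), that of 7 macrophage and neutrophil markers 56.2% (4 lower) and that of 9 Wnt targets 72.3%. That last sum is led by bright genes such as Ccnd1 and does not show the targets that fell most. Nkd1 differed by -3.83 and Prox1 by -3.62 on the log2 scale. The 5 epithelial markers summed to 116% (1 higher). The 6 Paneth cell markers summed to 2.59% in Notch-activated tumours (5 lower), but also to 69.9% in Notch-inactivated normal tissue, where Ptn and Cadps were at or near background. The part of each cell type in the levels of Ptn and Cadps was not tested.

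Among the 4 bright tumour arrays, the fibroblast sum stood at 109% and 91.2% in wild type and 83.5% and 119% in Notch-inactivated tumours. Ptn stood at 108%, 91.7%, 72.2% and 165% and Cadps at 139%, 61.1%, 71.4% and 157% in the same order. All 3 were higher on the same array of each pair. Over all features, deviations of the first arrays of these 2 groups correlated at -0.38, so features in general leaned to opposite orders in the 2 pairs. The share of features with this order was not counted. The macrophage and neutrophil sum (110%, 89.8%, 99.6% and 126%), the sum of 2 smooth muscle markers (111%, 88.5%, 116% and 173%) and the Wnt target Nkd1 had the same order within pairs. Of the genes in the first sum, only S100a9 and Cxcl2 had this order. Lyz2 (10.48, 11.07, 11.61 and 11.26 on the log2 scale), C1qb and Cd68 had the reverse in both pairs. C1qa and Csf1r had another order in the wild type pair. In the smooth muscle sum Mylk had this order, while Acta2 read 7.19 and 7.14 in Notch-inactivated tumours. The endothelial sum (86.8%, 113%, 78.3% and 87.9%) had another order in the wild type pair. In both pairs the order was the reverse for the epithelial sum (94.8%, 105%, 102% and 95.5%), the Paneth cell sum (97.1%, 103%, 137% and 72.7%), Prox1 and the fibroblast marker Fbln1. The sum of all 9 Wnt targets lay between 95.3% and 100% on these arrays.

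**Figure D4:**
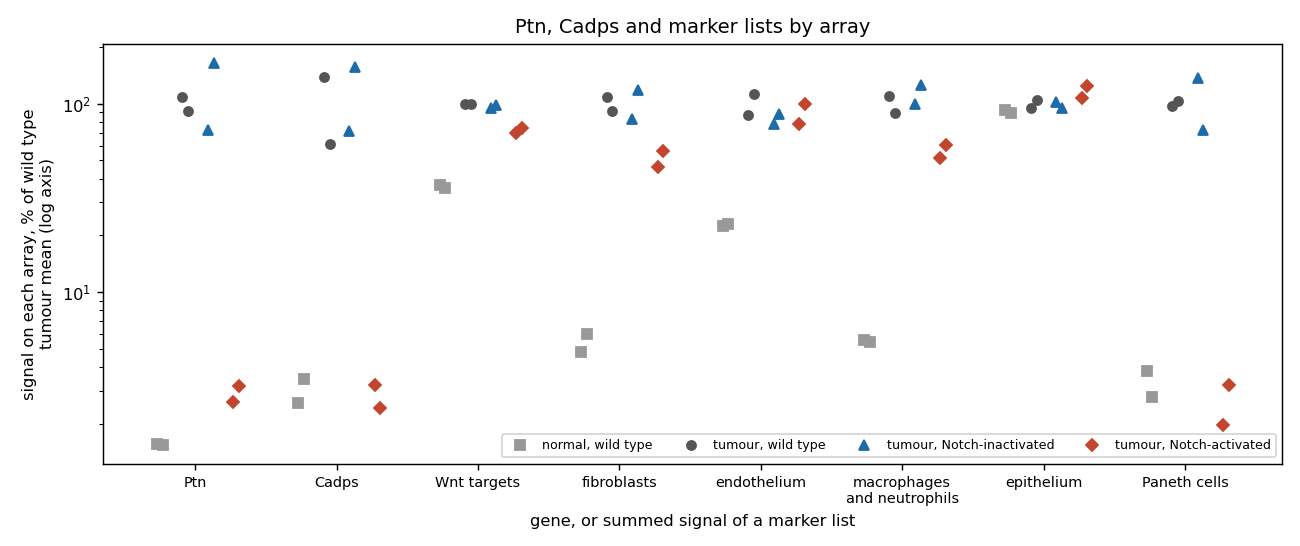
Signal of Ptn and Cadps and summed signal of 6 marker lists on single arrays, as a percent of the wild type tumour mean (vertical log axis), for wild type normal tissue and the 3 tumour groups, 2 arrays each. Notch-activated tumours average 2.90% for Ptn and 2.83% for Cadps, against 51.3% for the fibroblast sum and 72.3% for the Wnt target sum, which bright genes such as Ccnd1 lead.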

How the data were processed

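The table analysed holds 1 deposited log2 value per probe and array for 46628 probes. The authors' normalization step is not given in the sources used here: every array had a median of 5.54, a maximum of 14.2 and nearly the same sorted values, which is how quantile normalized data look, and the log2 base is inferred from the range. Per the labels, RNA was extracted with Trizol and RNeasy columns and labelled with biotin. A companion table with 24 per-sample columns was not analysed here, since they could not be tied to samples.

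The 366 control probes were left out, and a probe was kept above its array's background limit on at least 2 of 12 arrays. A gene's brightest kept probe stood for it. Differences come from 1 limma fit (version 3.58.1, R 4.3.3) of 6 group means, tested two-sided, with Benjamini-Hochberg adjustment over all features, and were tested on simulated data first. Where the dim group was at background on both arrays, folds are bounds ("at least"). Members, gene lists and the rule for named genes were chosen with earlier results of these data known: up to 6 called genes per pleiotrophin or vesicle list, up to 4 of other lists, and the 8 most like each member. Probes named after 2 leading zeros, among them Ptn, Nkd1, Sox4, Wnt6, Nrp1, Itgav, Sdc1, Agrn, Vcan, Magi1, Pik3r1, Rab27b, Rims2, Snap25, Syt1, Scg2, Pcsk1n and Ddc, are the less firm class. It also holds Mib1, Dcn, Ascl2, Ccnd1, Cldn2, Ephb2, Nkx2-2, Elavl4, Fgf13, Angptl4, Aph1a and Ncan. Sox11, Tbx1, Pdgfrl, Lyz2, Cd68, Acta2 and Mylk belong to it too. Alternatives were cyclic loess, no filter, a 99th percentile limit, the mean over probes, a replicate block and each array left out. Counts over lists include members that are not reported here by name.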

Additional observations from a re-analysis of the deposited data

Results flagged for a closer look

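For 4 genes of the pleiotrophin and vesicle lists, the tumour minus normal difference in a Notch genotype differed from that in wild type mice by limma's test of the difference itself, in which 12.7% of all features were called for Notch-activated and 0.739% for Notch-inactivated mice. For Sdc1 the difference of differences was -0.64 (SE 0.18, adjusted p = 0.0469), with tumour minus normal at 0.52 in wild type and -0.13 in Notch-activated mice; the call was lost under most single arrays left out, for example without the first wild type normal array (-0.49, adjusted p = 0.132). For Itgav it was -0.69 (SE 0.17, adjusted p = 0.0299) in Notch-activated and -1.10 (SE 0.17, adjusted p = 0.0286) in Notch-inactivated mice. Wild type normal tissue lay about at its background limits, at 5.72 and 5.85. Both calls were lost without either wild type normal array and without several others. Without the first or second of these, the values were -0.62 and -0.75 in Notch-activated mice. In Notch-inactivated mice they were -1.03 and -1.16. For Rab27b it was 0.95 (SE 0.19, adjusted p = 0.0118), with -1.09 in wild type and -0.14 in Notch-activated mice, and no array left out ended this call. For Cplx2 it was -0.73 (SE 0.18, adjusted p = 0.0252), but both Notch-activated tissues and wild type normal tissue were at background, and the call was lost without the first Notch-activated tumour array (-0.60, adjusted p = 0.0947), among others.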

How the results depend on the processing

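With 2 arrays per group, leaving out 1 array moved the number of features called more than any other choice. The count ran from 2622 to 5987 (5664 with all arrays) for Notch-activated tumour minus normal, from 2951 to 5050 (4875) for Notch-activated minus wild type in tumour, from 18 to 50 (48) for Notch-inactivated minus wild type in tumour, and from 2898 to 5090 (4948) for Notch-activated minus Notch-inactivated in tumour. In normal tissue it ran from 993 to 2033 (1850) for Notch-activated and from 366 to 915 (959) for Notch-inactivated minus wild type, and for the difference of tumour changes from wild type from 1606 to 2914 (2773) in Notch-activated and from 57 to 169 (162) in Notch-inactivated mice. The Ptn difference ran from 5.38 to 6.57 for Notch-inactivated tumour minus normal, from -0.47 to 0.72 for Notch-inactivated minus wild type tumours, from -5.83 to -4.65 for Notch-activated minus Notch-inactivated tumours and from -0.62 to 0.57 for the change of tumour minus normal in Notch-inactivated against wild type mice, where normal tissue was at background. The Cadps difference ran from 4.36 to 5.54 and from 4.28 to 5.42 for tumour minus normal in wild type and Notch-inactivated mice, from -5.63 to -4.45 for Notch-activated and from -0.39 to 0.79 for Notch-inactivated minus wild type tumours, from -5.81 to -4.67 between the 2 Notch genotypes' tumours, and from -5.21 to -4.02 and -0.70 to 0.49 for the change against wild type in Notch-activated and Notch-inactivated mice. Among list genes, 223 results were called with all arrays. Cyclic loess ended 8 of these calls, no filter on dim probes 7, the mean over probes 8 and single arrays left out 12 to 41, and under the 99th percentile limit 211 stayed called; none of these settings reversed a call, and the causes were not tested. The deviations of same-numbered arrays correlated between -0.38 and 0.35 over pairs of groups. The value of -0.38 was for wild type with Notch-inactivated tumours, and 0.35 for wild type with Notch-inactivated normal tissue. All other pairs lay between -0.12 and 0.12. What the arrays of these 2 pairs of groups share was not tested. With the replicate number as a block, 4768 features were called between Notch-activated and wild type tumours and 6 calls of list genes were lost. Levels under an array's foreign-sequence limit have no order, as for Ptn on all 6 normal arrays and Cadps on 5 of the 6.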

Other observations

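A list of other growth factors and cytokines was compared with Ptn. Of its 15 measured genes, 9 rose and 0 fell in wild type tumours (51.1% of all features called). The median log2 difference was 0.50 against -0.03 over all features. Angptl4, a regulator of lipid uptake and vessels, rose at least 4.67-fold and the growth factor Igf1 at least 2.79-fold. Between Notch-activated and wild type tumours 1 rose and 5 fell, with a median of -0.19 against 0.01 (22.2% called). Igf1 fell by 0.87 (SE 0.15, adjusted p = 0.00212), and Fgf13 rose by 0.68 (SE 0.13, adjusted p = 0.00431). Angptl4 fell by 1.0 (SE 0.23, adjusted p = 0.0109), a call lost without the second wild type tumour array (-0.80, adjusted p = 0.0748) or the first Notch-activated tumour array (-0.62, adjusted p = 0.0680). Gdf15 fell by 1.08 (SE 0.33, adjusted p = 0.0412), a call lost without any 1 tumour array of either group (-0.88 to -1.28), without any 1 wild type or Notch-activated normal array, with the replicate block (adjusted p = 0.0525) and with no filter on dim probes (adjusted p = 0.0577).

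Of 15 measured genes of the Notch pathway, 2 rose and 5 fell in wild type tumours (median -0.03, with 51.1% of all features called), and 3 rose and 2 fell between wild type and Notch-activated tumours (median 0.00, with 22.2% called). In the latter the receptor gene Notch4 rose by 2.0 (SE 0.17, adjusted p = 4.70e-05) and the gamma-secretase gene Aph1a by 0.79 (SE 0.14). Maml2, a coactivator of Notch, fell by 1.19 (SE 0.14, adjusted p = 3.64e-04), after having been at least 2.72-fold higher in wild type tumours than in normal tissue.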
